A study of Homo sapiens with 12 samples.

Results

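The metallothionein genes MT1A, MT1E, MT1F, MT1G, MT1H, MT1M, MT1X and MT2A were followed through all conditions of 2 established human cholangiocarcinoma cell lines. These 8 genes were chosen by symbol, mapped from the Ensembl identifiers of the count table, out of 60651 genes in all. RNA sequencing had been performed on 12 libraries, with 2 libraries in each of 6 groups, all harvested at 72 h. EGI-1 cells, grown in DMEM, received vehicle, 0.5 µM decitabine, 200 nM talazoparib or decitabine and talazoparib at those doses together (the combination). HUCCT1 cells, grown in RPMI1640, received vehicle or 1 µM decitabine. Both lines are labelled wild type, and the vehicle is labelled as DMSO. Decitabine is a nucleoside inhibitor of DNA methyltransferases, and talazoparib inhibits and traps PARP enzymes. The labels give 200 nM talazoparib, whereas the library names for that agent contain 50. Line, medium, decitabine dose and the number after L in the library names (3 for HUCCT1, 4 for EGI-1) go together. Their contributions to a difference between the lines cannot be told apart, and what the number after L stands for is not stated. Each line is a single tumour-derived culture, and nothing says that the 2 libraries of a group came from separate cultures, so p-values measure only the spread between libraries, which may be technical.

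Metallothioneins are small cysteine-rich proteins that bind zinc, copper and cadmium and buffer free metal ions. The transcription factor MTF1 senses zinc and binds metal response elements in their promoters, and oxidative stress and glucocorticoids are further known inducers. In liver and biliary tissue they are known as zinc- and stress-responsive genes, and methylation of promoters of the MT1 subfamily has been described in several carcinomas.

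Total counts per library ranged from 23139065 to 33181930 in EGI-1 and from 32519985 to 34965627 in HUCCT1. All 7 markers of biliary epithelium exceeded 3 counts in at least 1 library of every group, with a summed level of 7796 to 8732 CPM (read counts scaled by library size and TMM factors) in EGI-1 libraries and 8848 to 16270 in HUCCT1 libraries. Of 5 hepatocyte markers, 4 were at or below 3 counts in every EGI-1 group and 3 in both HUCCT1 groups. The library labelled EGI-1 combination replicate 2 stood apart from the others. It held 381 counts of PTPRC, the pan-leukocyte phosphatase CD45, and 148 of CD3E, a T cell receptor subunit, against 1 to 7 and 0 to 4 in the other EGI-1 libraries. The summed level of the 5 leukocyte markers was 20.4 CPM in it and 0.719 to 1.96 CPM in the other EGI-1 libraries, with LYZ at 84 counts against 19 to 39, while CD68 (7 counts) did not exceed its range in them. Results for the combination are therefore given with and without this library where it bears on a named value.

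The 8 genes lie in a cluster of 75.6 kb on chromosome 16 (GRCh38, 56608584 to 56684196). In the order of the plus strand they are MT2A, MT1E, MT1M, MT1A, MT1F, MT1G, MT1H and MT1X, with MT1G alone on the minus strand. RefSeq promoter windows (GRCh38.p14, 250 bases before to 50 after the start) were matched for 3 of the 8 genes. Under the combination in EGI-1, MT2A and MT1X were called higher, though the MT1X call was not firm. The 150 bases before the start are shown for MT2A and MT1X, expressed in both lines, and MT1H, at or near 0 throughout. They are, 5′ to 3′ on the plus strand, chr16:56608434-56608583 for MT2A, chr16:56669664-56669813 for MT1H and chr16:56682320-56682469 for MT1X. Capitals mark the metal response element cores TGCACNC and TGCGCNC on either strand.
MT2A: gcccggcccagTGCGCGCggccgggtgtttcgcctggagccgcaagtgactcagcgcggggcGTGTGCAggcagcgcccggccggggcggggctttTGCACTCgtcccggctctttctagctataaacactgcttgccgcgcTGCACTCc
MT1H: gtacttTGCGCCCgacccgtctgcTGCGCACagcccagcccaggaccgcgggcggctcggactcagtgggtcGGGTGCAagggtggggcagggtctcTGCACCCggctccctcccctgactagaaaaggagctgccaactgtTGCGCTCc
MT1X: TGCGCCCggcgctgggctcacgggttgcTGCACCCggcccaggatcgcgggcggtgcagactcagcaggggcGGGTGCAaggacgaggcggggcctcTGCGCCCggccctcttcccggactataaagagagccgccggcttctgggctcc
The whole windows of 300 bases held 8 such cores in MT2A, 8 in MT1H and 4 in MT1X. Of 35116 promoter windows of the same length, 29.6% held at least 1 core, 0.601% at least 4 and 0.0199% at least 8. The core of the antioxidant response element, TGACNNNGC, occurred once on either strand in MT2A and in MT1X, did not occur in MT1H and occurred in 13.3% of all windows. The windows held 37 CpG dinucleotides in MT2A, 25 in MT1H and 26 in MT1X, against a median of 14. Windows with at least as many CpG made up 11.3%, 32.0% and 30.1% of all windows, in the same order. MT1H, at or near 0 counts throughout, held as many metal response element cores as MT2A.

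MT2A dominated the family in both lines, and MT1E set them apart. MT2A had 15351 to 25094 counts in the 8 EGI-1 libraries and 19717 to 24830 in the 4 HUCCT1 libraries. It accounted for 98.38% to 98.94% of all counts of the 8 genes in EGI-1 libraries, and for 82.39% to 85.51% in HUCCT1 libraries. MT1E took up 12.83% to 15.26% of the family counts in HUCCT1. Together the 8 genes made up 0.0593% to 0.0831% of the counts of a library.

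**Figure D1:**
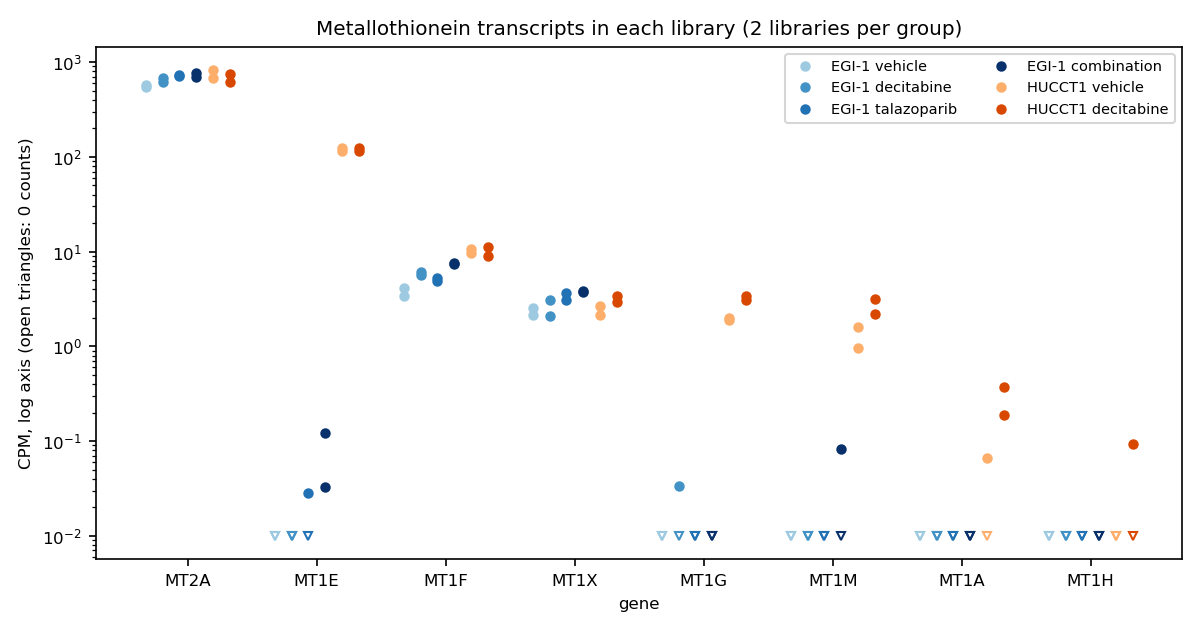
Level of each of the 8 genes in every library, in CPM on a log axis, with 2 points per group and open triangles (drawn at an arbitrary height) for libraries with 0 counts. MT2A lies between 552 and 820.4 CPM in all 12 libraries, whereas MT1E lies at 114 to 124 CPM in HUCCT1 and at 0.122 CPM or less in EGI-1.

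MT1E was on in HUCCT1 and at the floor in EGI-1. HUCCT1 libraries held 3531 and 3726 counts of MT1E under vehicle and 3651 and 3667 under decitabine. In EGI-1, MT1E had 0 counts in both vehicle and both decitabine libraries, 0 and 1 under talazoparib, and 3 and 1 under the combination. Relative to a floor of 3 counts per library, the HUCCT1 vehicle level was at least 1160-fold higher than that of EGI-1 vehicle (at least 964-fold with library totals in place of TMM-scaled library sizes). The EGI-1 total of 5 counts in 218406714 corresponds to 0.0229 CPM, with an exact upper limit of 0.0534 CPM that covers counting error only.

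MT1G and MT1M showed the same division between the lines. MT1G had 57 and 60 counts in HUCCT1 vehicle libraries, and 1 count in all 8 EGI-1 libraries together, in decitabine replicate 1. MT1M had 29 and 48 counts in HUCCT1 vehicle libraries, and 2 counts in the EGI-1 libraries, both in combination replicate 1. The HUCCT1 vehicle level was at least 18.7-fold higher for MT1G and at least 12.3-fold higher for MT1M than that of EGI-1 vehicle (at least 15.5-fold and 10.2-fold with library totals). MT1A had 0 counts in all 8 EGI-1 libraries, which allows up to 0.0169 CPM over them, and 2 and 0 counts in HUCCT1 vehicle libraries. MT1H had 0 counts in 11 of the 12 libraries and 3 in HUCCT1 decitabine replicate 1, and its level could not be compared.

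Among the members expressed in both untreated lines, MT1F and MT2A were higher in HUCCT1 and MT1X showed no such difference. Across the 12-library fit, 55.8% of 25096 genes were called between the vehicle groups (an adjusted p under 0.05 in the quasi-likelihood test of edgeR), so a call here is the rule for genes at large. Of the 8 members 6 passed the filter on low counts, and MT1E, MT1G and MT1M passed through HUCCT1 alone, so their fitted differences are not given. MT1F had 10.6 and 9.71 CPM in HUCCT1 vehicle and 4.13 and 3.38 CPM in EGI-1 vehicle, a log2 difference of 1.43 (SE 0.156, edgeR adjusted p = 7.6e-08). MT2A had 684 and 820.4 CPM in HUCCT1 vehicle against 570.1 and 552 CPM in EGI-1 vehicle, a log2 difference of 0.42 (SE 0.094, edgeR adjusted p = 0.00063). With library totals, where the median of all genes was -0.273 on the log2 scale, the MT2A difference was 0.15 (edgeR adjusted p = 0.14). MT1X had 2.14 and 2.68 CPM in HUCCT1 vehicle and 2.17 and 2.52 CPM in EGI-1 vehicle, and the groups overlapped (log2 difference 0.04, SE 0.231, edgeR adjusted p = 0.89). The sign of the MT1X difference turned with library totals and with upper-quartile scaling.

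To set the genes side by side, counts were divided by the union exon length of each gene and scaled to the same total in every library (a TPM-like level). In HUCCT1 vehicle libraries the TPM-like level was 2925 ± 268 (SD, n = 2) for MT2A and 405 ± 1.19 for MT1E, followed by MT1F at 19.6 ± 1.99. MT1G at 9.15 ± 0.0109 and MT1M at 8.80 ± 2.78 did not differ beyond their spread, and MT1X was at 4.96 ± 0.596. In EGI-1 vehicle libraries the order was MT2A at 2518 ± 5.85, MT1F at 8.31 ± 1.01 and MT1X at 5.57 ± 0.705. The order of the low genes depended on the length used, since the union of MT1X exons is 1727 bases and its canonical transcript 404 bases. With canonical lengths the HUCCT1 vehicle TPM-like level of MT1X (13.3 ± 1.60) was above that of MT1G (10.5 ± 0.0201) and MT1M (7.08 ± 2.24).

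In EGI-1, the 3 expressed members were higher under the combination than under vehicle. Of 8 members, 3 (MT2A, MT1F and MT1X) passed the filter and all 3 were called, all higher, against 18.7% of 22406 genes called in either direction and 11.1% called higher. Their median log2 difference was 0.70, and that of all genes was -0.025. The summed level of the fibroblast markers was 30.4 and 28.7 CPM under vehicle and 49.8 and 42.9 CPM under the combination (1 called higher of 1 tested), and that of the endothelial markers 19.7 and 21.2 against 28.6 and 29.8 CPM (2 of 3 called higher). Biliary markers summed to 7796 and 7824 CPM under vehicle and 8732 and 8635 CPM under the combination, with 3 of 7 called higher. Their part in the values of the members was not tested. In bulk RNA, more cells that express a gene and more RNA per cell cannot be told apart.

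MT1F, a classical zinc-inducible member, had the largest log2 difference of the 3. It had 126 and 94 counts under vehicle and 180 and 232 under the combination. Its level was 4.13 and 3.38 CPM under vehicle, 5.68 and 6.06 under decitabine, 5.21 and 4.95 under talazoparib and 7.35 and 7.63 under the combination, and none of the 4 groups overlapped another. The combination raised MT1F 1.98-fold over vehicle (log2 difference 0.98, SE 0.154, edgeR adjusted p = 0.00021). Without combination replicate 2 the log2 difference was 0.96 (SE 0.194, edgeR adjusted p = 0.0039), so it was as large without the library that held leukocyte transcripts.

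MT2A, the main isoform, had 570.1 and 552 CPM under vehicle and 777 and 692 CPM under the combination. Both combination libraries were above both vehicle libraries, with a 1.3-fold difference (log2 0.38, SE 0.061, edgeR adjusted p = 0.00027). Without combination replicate 2 it was 0.47 (SE 0.068, edgeR adjusted p = 0.00025). The mean level was 561 ± 12.9 CPM (SD, n = 2) under vehicle and 735 ± 60.3 CPM under the combination.

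MT1X had 66 and 70 counts under vehicle and 95 and 114 under the combination. Its level was 2.17 and 2.52 CPM under vehicle and 3.88 and 3.75 CPM under the combination, without overlap (log2 difference 0.70, SE 0.219, edgeR adjusted p = 0.034). This call was not firm. It was lost without any 1 of the 4 libraries compared, with edgeR adjusted p of 0.23 without vehicle replicate 1, 0.097 without vehicle replicate 2, 0.11 without combination replicate 1 and 0.10 without combination replicate 2, and with DESeq2 (adjusted p = 0.10). Without combination replicate 2, 2 of the 3 members were called, against 10.7% of all genes.

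**Figure D2:**
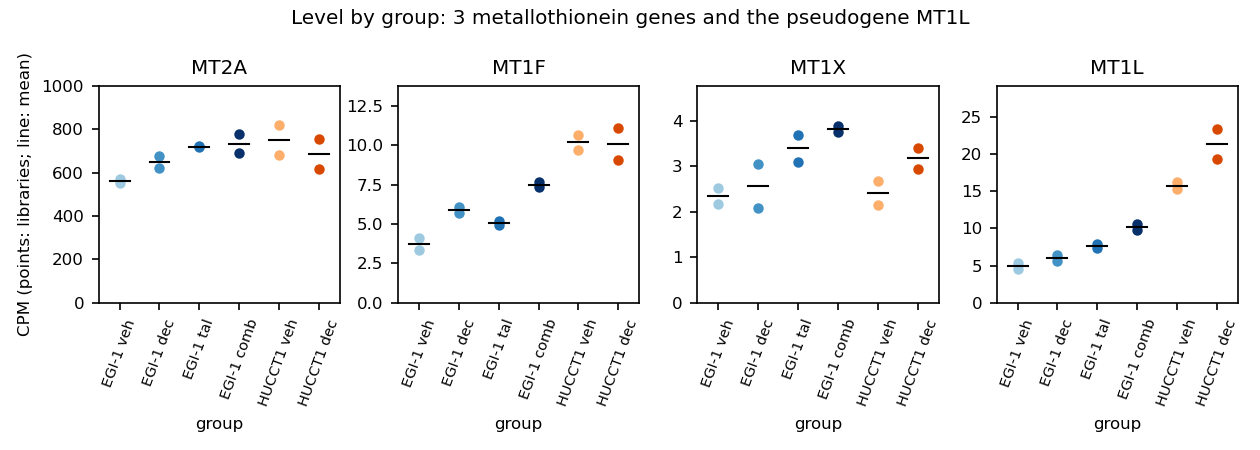
CPM of MT2A, MT1F, MT1X and the family pseudogene MT1L in each library (points) with the group mean (line), on axes that start at 0. In EGI-1 the mean of each of the 4 genes is lowest under vehicle and highest under the combination, for MT2A 561 against 735 CPM.

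Talazoparib alone raised MT2A. Its level under talazoparib was 723 and 718 CPM, above both vehicle libraries, a 1.29-fold difference (log2 0.36, SE 0.061, edgeR adjusted p = 0.0016). MT2A was the 1 member called of 3 tested, against 4.12% of all genes called and 2.83% called higher. The call was lost without vehicle replicate 2 (log2 0.34, edgeR adjusted p = 0.073). MT1F (log2 0.43, edgeR adjusted p = 0.16) and MT1X (log2 0.55, edgeR adjusted p = 0.21) did not pass.

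Decitabine alone gave no call among the 3 tested members by edgeR, against 0.544% of all genes, while 2 members had an unadjusted p under 0.05 and DESeq2 also called 0. MT1F was 1.57-fold above vehicle without overlap (log2 0.65, SE 0.156, edgeR adjusted p = 0.084), and MT2A 1.16-fold (log2 0.22, SE 0.061, edgeR adjusted p = 0.16). MT1X had 3.06 and 2.08 CPM under decitabine, on either side of both vehicle libraries (log2 0.15, SE 0.225, edgeR adjusted p = 0.91). The MT1X difference turned negative without decitabine replicate 1.

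The combination was also compared with each single agent. Of the 3 members, 0 were called between the combination and decitabine (7.68% of all genes) and 0 between the combination and talazoparib (1.92%), by edgeR and by DESeq2. At an unadjusted p under 0.05 there were 3 and 1 members, respectively. MT1F differed by 0.55 on the log2 scale between the combination and talazoparib (SE 0.150, edgeR adjusted p = 0.073), and by 0.53 without combination replicate 2 (adjusted p = 0.35). Without decitabine replicate 1 MT1F was called (edgeR adjusted p = 0.034), and likewise without decitabine replicate 2, although these libraries belong to neither arm of the difference. MT2A and MT1X differed from talazoparib by 0.02 and 0.15, and by 0.10 and 0.18 without combination replicate 2. The combination against decitabine gave log2 differences of 0.16 for MT2A, 0.34 for MT1F and 0.55 for MT1X, and without combination replicate 2 of 0.25, 0.31 and 0.58. With 1 library left out, the MT2A difference ranged from 0.08 (without combination replicate 1) to 0.25, and that of MT1X from 0.31 (without decitabine replicate 2) to 0.86 (without decitabine replicate 1). Without decitabine replicate 1, MT2A (edgeR adjusted p = 0.029) and MT1X (edgeR adjusted p = 0.041) were called. Whether the combination departed from both single effects added together, in log2 units, was tested as an interaction, and it was called for 0 of 3 members by edgeR and by DESeq2, against 0.161% of all genes. The departure was -0.20 (SE 0.086) for MT2A, which was the 1 member with an unadjusted p under 0.05, -0.09 (SE 0.216) for MT1F and 0.00 (SE 0.340) for MT1X. Without combination replicate 2 the departure was -0.11 (SE 0.089) for MT2A, -0.12 for MT1F and 0.03 for MT1X, and without combination replicate 1 it was -0.28 for MT2A. These comparisons share the combination libraries.

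**Figure D3:**
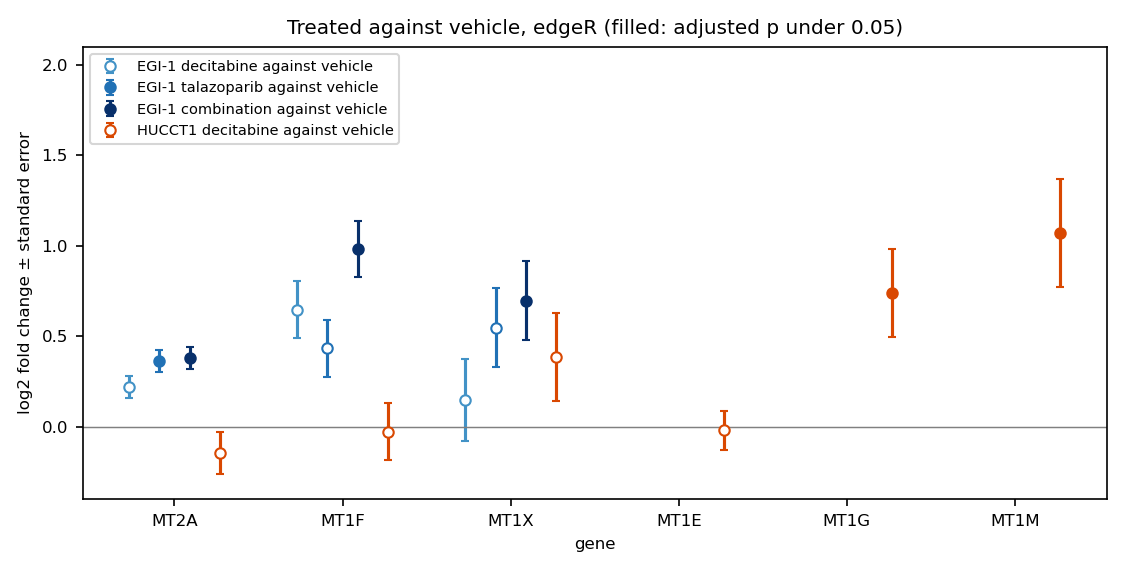
Log2 fold change against vehicle with its standard error for the members tested, with filled points for an edgeR adjusted p under 0.05. In EGI-1 all 9 points are above 0 and those of the combination and of MT2A under talazoparib are filled, while in HUCCT1 MT1G and MT1M are filled and MT2A, MT1F and MT1E lie near or below 0.

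In HUCCT1, MT1M and MT1G were called higher with decitabine, though neither call was firm. These genes had 2 counts and 1 count, respectively, in all EGI-1 libraries together. MT2A, MT1E and MT1F did not pass the test. MT1M rose from 29 and 48 counts to 71 and 94, or from 0.955 and 1.59 CPM to 2.22 and 3.17 CPM, a 2.1-fold difference (log2 1.07, SE 0.300, edgeR adjusted p = 0.007). MT1G, a member studied as a target of promoter methylation in liver cancer, rose from 57 and 60 counts to 99 and 101, or from 1.88 and 1.98 CPM to 3.09 and 3.41 CPM (log2 0.74, SE 0.245, edgeR adjusted p = 0.021). In both genes the treated libraries lay above both vehicle libraries.

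These 2 calls of 6 members tested stood against 33.5% of 22479 genes called in this comparison and 19.6% called higher, so the share of members is close to that of all genes. Both calls were lost with DESeq2, which called 0 members (adjusted p = 0.082 for MT1M and 0.17 for MT1G), and at edgeR's unadjusted p under 0.05 there were the same 2. MT1M was not called without vehicle replicate 1 (edgeR adjusted p = 0.11) or decitabine replicate 2 (0.094), and MT1G without vehicle replicate 1 (0.10), vehicle replicate 2 (0.068) or decitabine replicate 2 (0.11).

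MT1X had 65 and 81 counts under vehicle and 94 and 101 under decitabine, without overlap, and did not pass (log2 0.39, SE 0.242, edgeR adjusted p = 0.24). MT2A had 684 and 820.4 CPM under vehicle and 615 and 754 CPM under decitabine, with overlapping groups (log2 -0.14, edgeR adjusted p = 0.36). MT1E (log2 -0.02, SE 0.107, edgeR adjusted p = 0.91) and MT1F (log2 -0.03, SE 0.158, edgeR adjusted p = 0.92) also overlapped, and the sign of both turned with library totals. MT1A was too low to be tested, at 2 and 0 counts under vehicle and 6 and 11 under decitabine, a ratio of 8.36 with a 95% interval of 1.98 to 74.6 that covers counting error only.

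Other marker genes moved with decitabine in HUCCT1. The summed level of the 7 biliary markers was 14480 and 16270 CPM under vehicle and 8848 and 10230 under decitabine, with 5 called lower. That of the 5 fibroblast markers was 37.2 and 37.7 CPM under vehicle and 168.1 and 198 under decitabine (3 called higher, 1 lower), and that of the 3 endothelial markers 5.47 and 4.10 against 24.9 and 26.0 CPM. The 5 leukocyte markers summed to 0.593 and 0.496 CPM under vehicle and 1.37 and 1.59 CPM under decitabine, and the 5 hepatocyte markers to 77.6 and 52.6 against 106 and 96.7 CPM. Their part in the values of the metallothionein genes was not tested.

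The decitabine effect on MT1F was called different between the lines, but the call was not firm. MT1F rose 1.57-fold in EGI-1 without a call and stayed at 0.981-fold in HUCCT1, and the difference of the 2 effects was -0.66 on the log2 scale (SE 0.217, edgeR adjusted p = 0.043). MT1F was the 1 member called of 6 tested, beside 15.9% of all genes called and 7.2% called lower. Only MT1F, MT2A and MT1X could be read, too few to set their share against that of all genes. The call was lost with library totals, upper-quartile scaling, DESeq2 and without any 1 of 7 libraries. The difference was -0.35 for MT2A (SE 0.133, edgeR adjusted p = 0.084) and 0.25 for MT1X (SE 0.322, edgeR adjusted p = 0.68). For MT1E, MT1G and MT1M this difference cannot be read, because EGI-1 was at the floor. The dose in HUCCT1 was higher than in EGI-1, and dose and line cannot be told apart.

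Of 13 further metallothionein genes and pseudogenes, MT1L alone passed the filter. MT1L, a transcribed pseudogene between MT2A and MT1E, had 137 and 148 counts under vehicle, 195 and 154 under decitabine, 181 and 277 under talazoparib and 258 and 299 under the combination in EGI-1. It was higher than vehicle under talazoparib (log2 0.65, edgeR adjusted p = 0.014) and under the combination (log2 1.05, edgeR adjusted p = 5.3e-05, and 1.10 without combination replicate 2, adjusted p = 0.00054). In HUCCT1 it had 463 and 492 counts under vehicle and 620 and 692 under decitabine (log2 0.43, edgeR adjusted p = 0.016). The other 12 had at most 11 counts in any library, and MT3, the brain-enriched member, and MT4, the member of stratified epithelia, had 0 counts throughout.

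Related or overlapping sequence limits how reads of this family can be assigned. Of the 50-base stretches of their transcripts, 18.7% of MT1X, 18.2% of MT1M, 16.4% of MT1G and 15.8% of MT1H also occurred in transcripts of other genes, against 7.1% for MT1E, 5.8% for MT1A, 4.5% for MT2A and 1.2% for MT1F. Of the 100-base stretches, 11.6% of MT1X and 1.4% of MT1H did so, and 0.0% for the other 6. These shares were computed for the members, against the annotated transcripts of all other genes. Stretches shared with MT1L were not counted apart, and no such share was computed for MT1L itself. MT1X overlaps a long noncoding RNA gene on the same strand, ENSG00000259827, which had 0 counts in all libraries. Their shared exons cover 321 of the 1727 exon bases of MT1X (18.6%), and stretches within them count in the shares above. The MT1X shares therefore do not measure related family sequence alone. Both genes start at the same base, 56682470, and the canonical MT1X transcript is 404 bases long. How much of that transcript the shared exons cover was not computed. How the counting treated reads that match several genes or overlapping genes is not given in the sources used here. The assignment of reads within the shared stretches is therefore uncertain. So are the levels of the members beside one another, that of MT1X included.

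The genes that handle zinc and copper moved in both directions. Of 32 listed genes 25 were tested in EGI-1, and 5 were called higher and 2 lower under the combination (3 and 2 without combination replicate 2), with a median log2 difference of 0.079 beside -0.025 for all genes. Of all genes, 11.1% were called higher and 7.61% lower, and 10.7% were called without that library. SLC39A8, a zinc and manganese importer, rose by 0.74 on the log2 scale (SE 0.073, edgeR adjusted p = 1.4e-06, and 0.70 without that library), and SLC39A13, a zinc transporter of intracellular membranes, by 0.61 (SE 0.073, edgeR adjusted p = 1.2e-05, and 0.66 without it). SLC39A11 fell by 0.52 and SLC11A2, an iron and divalent metal transporter, by 0.22, and without that library their log2 differences were -0.50 and -0.28. MTF1 itself had 27.5 CPM in both vehicle libraries and 29.9 and 29.2 under the combination (log2 0.10, edgeR adjusted p = 0.53, and 0.12 without combination replicate 2). SLC30A1, the zinc exporter that MTF1 also controls, had 58.3 and 59.8 CPM under vehicle and 55.8 and 66.01 under the combination, with overlapping groups (log2 0.04, edgeR adjusted p = 0.80, and -0.09 without combination replicate 2).

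In HUCCT1, 9 of 26 tested genes of this list were called higher and 2 lower with decitabine, with a median of 0.215 beside 0.002 for all genes, of which 19.6% were called higher and 13.9% lower. SLC30A1 rose from 85.0 and 78.5 CPM to 113 and 125 CPM (log2 0.53, SE 0.110, edgeR adjusted p = 0.00045), and its decitabine effect was larger than in EGI-1 by 0.55 on the log2 scale (edgeR adjusted p = 0.0052). ATP7B, the copper exporter of hepatobiliary cells, rose from 2.24 and 1.88 CPM to 5.28 and 5.44 CPM (log2 1.36, edgeR adjusted p = 3.3e-05). SLC30A3, a zinc transporter of synaptic vesicles, had 0 counts in both vehicle libraries and 11 and 10 with decitabine, at least 3.44-fold higher than a floor of 3 counts per library. SLC39A4, the intestinal zinc importer, fell by 0.57 and SLC39A3 by 0.47. MTF1 was at -0.12 (edgeR adjusted p = 0.47). In untreated cells MTF1 was higher in HUCCT1 than in EGI-1 (log2 0.93, edgeR adjusted p = 2.1e-08), as was SLC30A1 (log2 0.47, edgeR adjusted p = 0.00016).

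Among other inducers of metallothioneins, the 17 targets of the oxidative stress factor NRF2 included 1 called higher and 8 called lower under the combination in EGI-1 (1 and 5 without combination replicate 2), with a median of -0.154. Among all genes 11.1% were higher and 7.61% lower, and 10.7% were called without that library. HMOX1, heme oxygenase, rose by 0.95 (edgeR adjusted p = 4.7e-05, and 1.00 without that library), while AKR1C2, an aldo-keto reductase, fell by 0.86 and SLC7A11, the cystine importer, by 0.84 (differences of -0.99 and -0.95 without it, edgeR adjusted p = 0.05 and 3.2e-05). In HUCCT1 with decitabine 5 of the 17 were higher and 5 lower (median 0.094), beside 19.6% and 13.9% of all genes. OSGIN1 (0.70) and SRXN1 (0.55) rose most, and AKR1C3 (-1.26) and AKR1C1 (-0.72) fell most among those called. Of 8 tested genes of the glucocorticoid list, 1 was higher (FKBP5, 0.43) and 1 lower (the receptor NR3C1, -0.31) under the combination, with a median of -0.02, beside 11.1% and 7.61% of all genes. Without combination replicate 2 the log2 difference was 0.33 for FKBP5 (edgeR adjusted p = 0.069) and -0.38 for NR3C1 (edgeR adjusted p = 0.011). In HUCCT1 with decitabine 5 of the 8 were called higher (median 0.717), beside 19.6% of all genes, led by KLF9 (2.09) and SGK1 (1.70). The median log2 difference of 11 tested heat shock genes under the combination was -0.034, beside -0.025 for all genes, and in HUCCT1 with decitabine 2 of 10 were called higher (HSPA6, 1.29, and HSPH1, 0.30) and 1 lower (HSPA8, -0.37), a share close to the 33.5% of all genes called.

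Under treatment, the genes around the cluster did not share one direction. Of 13 protein-coding neighbours within 500 kb, 11 were tested in EGI-1, where OGFOD1 (0.26) and BBS2 (0.34) were higher and GNAO1 (-0.71) lower under the combination, with a median of 0.145, beside 18.7% of all genes called. Without combination replicate 2 the log2 difference was 0.20 for OGFOD1 (edgeR adjusted p = 0.17), 0.34 for BBS2 (edgeR adjusted p = 0.091) and -0.84 for GNAO1 (edgeR adjusted p = 0.0077). In HUCCT1 with decitabine HERPUD1 (0.71) and CETP (1.57) were higher and NUDT21 (-0.57) and BBS2 (-0.49) lower, out of 10 tested, with a median of 0.045, beside 33.5% of all genes called. Between the untreated lines 10 of 11 neighbours were lower in HUCCT1 and 1, HERPUD1, was higher, beside 27.3% of all genes called lower and 55.8% called in either direction, whereas MT2A and MT1F were higher there.

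The genes whose profile was most like that of MT2A, MT1F and MT1X were found by the correlation of log2 CPM, centred within each line, over the 12 libraries among 13605 genes. The 5 highest included CDC37, a co-chaperone of HSP90 (r = 0.969), TNFAIP1 (0.963), TUBA4A, an alpha tubulin (0.961), and SMOC1 (0.960). The libraries share their groups, the number after L in their names and depth differences. The coefficients are a description of these 12 libraries. CDC37 had a mean of 132 CPM under EGI-1 vehicle, 146 under decitabine, 153 under talazoparib and 170.3 under the combination.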

How the data were processed

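RNA sequencing libraries of EGI-1 (8) and HUCCT1 (4) were analysed. The authors deposited 1 table of raw read counts per gene, without normalization, for 60651 genes, of which 60437 were matched to a symbol. The labels' processing notes name fastp, Trim Galore, HISAT2, featureCounts and GRCh38, whereas the methods name fastp, STAR and RSEM, and the header of the table resembles that of featureCounts. The methods name a stranded total RNA kit for EGI-1. Strand use in counting and the treatment of multi-mapping reads are not given in the sources used here. Gene models came from GENCODE 44.

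Counts were tested with edgeR 4.0.16 (R 4.3.3) (filterByExpr, TMM factors, robust quasi-likelihood), p-values were adjusted by Benjamini-Hochberg over all genes tested, and an adjusted p under 0.05 was called. The 8 EGI-1 libraries (22406 genes), the 4 HUCCT1 libraries (22479) and all 12 (25096) were fitted separately, and DESeq2 1.42.0 was an alternative. CPM values use TMM factors over 12 libraries. A floor of 3 counts per library bounds folds against 0. Intervals (95%) and floors cover counting error only. An exact permutation test of 2 against 2 cannot go below 0.333. Replicates differed by more than counting noise (chi-square per gene 2.73 to 12.6). The fits were tested on simulated counts.

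The members and gene lists were chosen with earlier results of these data known. All members are named. From each list the called genes with the largest rises and falls (up to 2 each) are named for the combination against vehicle and for HUCCT1 decitabine, with MTF1 and SLC30A1 always, all neighbours counted, and the 5 genes of most similar profile. The results of 2 genes covered by these lists and rules are not reported here. PTPRC and CD3E are in the marker list, and were singled out after their values were seen. Library totals without factors and canonical transcript lengths were alternatives chosen after seeing the data.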

Additional observations from a re-analysis of the deposited data

Results flagged for a closer look

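In an interaction test over 12 libraries, the decitabine effect on MT1F was called different between the lines. The difference was -0.6571 on the log2 scale (HUCCT1 less EGI-1, edgeR adjusted p = 0.043). It was the 1 call of 6 members tested, beside 15.9% of all genes. MT1E, MT1G and MT1M could not be read in this test, because EGI-1 was at the floor. MT1F had 4.13 and 3.38 CPM under vehicle and 5.68 and 6.06 under decitabine in EGI-1, and 10.6 and 9.71 against 9.05 and 11.1 CPM in HUCCT1. Over all alternatives the difference lay between -0.83 and -0.52. The call was lost with library totals, upper-quartile scaling and DESeq2, and in several of the fits that left out 1 library. Dose, medium and the number after L in the library names differ with the line, and their part was not tested.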

How the results depend on the processing

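Leaving aside MT1E, MT1G and MT1M between the vehicle groups, which had 0 counts in the EGI-1 vehicle libraries, 9 single-gene results were called. Of their 138 alternative values, 113 kept the call and direction and 25 kept the direction without the call. Without a filter on low counts, 2 members were called for EGI-1 decitabine (0 with it), 1 for the combination against talazoparib (0 with it) and 2 for the difference in decitabine effect (1 with it). A fit on the libraries of both arms alone called 1 member between the combination and talazoparib. DESeq2 called 0 members for HUCCT1 decitabine, and 0 were called for the difference in decitabine effect with DESeq2, upper-quartile scaling or library totals. The cause was not tested.

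Leaving out 1 library at a time, the members called ranged from 0 to 1 for EGI-1 decitabine, 0 to 1 for talazoparib, 0 to 2 for the combination against decitabine, 0 to 1 for the combination against talazoparib, 0 to 2 for HUCCT1 decitabine and 0 to 2 for the difference in decitabine effect.

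Signs turned only for differences that were not called. Under upper-quartile scaling these were MT2A between the combination and talazoparib (-0.0002), MT1E with HUCCT1 decitabine (0.0038) and MT1X between the vehicle groups (-0.076). With library totals they were MT1E (0.054) and MT1F (0.044) with HUCCT1 decitabine and MT1X between the vehicle groups (-0.23). Without a filter, the departure of MT1X from the sum was -0.0103. With 1 library left out, MT1X with EGI-1 decitabine ranged from -0.16 to 0.39, MT2A between the combination and talazoparib from -0.066 to 0.105, the departure from the sum from -0.244 to 0.045 for MT1F and from -0.24 to 0.31 for MT1X, HUCCT1 decitabine from -0.077 to 0.033 for MT1E and from -0.18 to 0.11 for MT1F, and MT1X between the vehicle groups from -0.13 to 0.20.

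The replicate numbers of the titles did not pair the EGI-1 libraries (correlations of deviations between -0.265 and 0.211), and in HUCCT1 the single pair of groups gave 0.288. With the number as a replicate block, 2 members in place of 1 were called for the difference in decitabine effect (MT2A -0.35, edgeR adjusted p = 0.0045). In the same fits MT1X lost its call under the combination (0.70, edgeR adjusted p = 0.053) and MT2A gained one with HUCCT1 decitabine (-0.15, edgeR adjusted p = 0.032). With a block by the lettered or numbered series of library names, the called EGI-1 members kept their calls. MT1A and MT1H, at 0 to 11 and 0 to 3 counts per library, did not pass the filter on low counts in any of the 3 fits.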
